A study of Mus musculus with 24 samples.

Results

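Loss of Bmal1 in fat was examined at CT18, a time in the subjective night, by setting the 3 knockout arrays of that circadian time (CT) against its 3 control arrays. The members were taken by genotype and circadian time as the sample titles give them, and they are 6 of the 24 arrays of the study. The tissue was inguinal fat, a subcutaneous depot, and each array held the RNA of a separate biological replicate. Knockout mice were aP2-Cre+/- Bmal1fx/fx and control mice were Bmal1fx/fx, so both groups carried the floxed alleles and only the knockouts carried Cre. An effect of Cre and an effect of the deletion therefore cannot be told apart. All mice had a C57BL/6J background of 6 or more generations and were kept on chow. Every group had entered constant darkness 36 h ahead of collection and had gone without food for 24 h. Age is not among the labels used here. The aP2 promoter (of the Fabp4 gene) is strongly active in adipocytes and is known to be active in some other cells, macrophages among them. Which cells of the pad had recombined was not measured here.

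The molecular clock is a feedback loop. BMAL1, whose gene symbol is Arntl, pairs with CLOCK on E-box sequences and drives the Per, Cry and Nr1d genes. PER and CRY proteins inhibit the pair. The REV-ERB receptors encoded by Nr1d1 and Nr1d2 repress Arntl, Cry1 and Nfil3, the ROR receptors compete with them for the same sites, and the factors DBP, TEF and HLF pass the rhythm on to output genes. In adipose tissue the clock is known to influence lipid storage, fat breakdown and hormone release.

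The sequences upstream of 4 clock genes are shown because the E-box CACGTG, which reads the same on both strands, is the core site bound by BMAL1 with CLOCK. They are the 2 REV-ERB genes, whose groups did not overlap at CT18 (all genes 8.58%), and Ciart and Per1, repressors with the motif. Each sequence covers the 250 bases before a RefSeq transcript start (GRCm38.p6), is written 5′ to 3′ on the gene's strand, and has the motif in capitals.
Nr1d1 (chr11:98775378-98775627, minus strand): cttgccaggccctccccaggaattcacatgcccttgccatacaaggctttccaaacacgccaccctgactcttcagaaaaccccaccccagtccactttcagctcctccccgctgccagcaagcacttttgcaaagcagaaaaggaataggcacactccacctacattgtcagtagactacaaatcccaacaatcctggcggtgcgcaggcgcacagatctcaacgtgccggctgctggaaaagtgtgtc
Nr1d2 (chr14:18239107-18239356, minus strand): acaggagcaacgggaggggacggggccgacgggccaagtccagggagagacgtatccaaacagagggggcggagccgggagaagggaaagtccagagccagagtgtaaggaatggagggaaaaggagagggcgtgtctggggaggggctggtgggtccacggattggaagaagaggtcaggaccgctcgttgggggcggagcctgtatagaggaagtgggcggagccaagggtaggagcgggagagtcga
Ciart (chr3:95882229-95882478, minus strand): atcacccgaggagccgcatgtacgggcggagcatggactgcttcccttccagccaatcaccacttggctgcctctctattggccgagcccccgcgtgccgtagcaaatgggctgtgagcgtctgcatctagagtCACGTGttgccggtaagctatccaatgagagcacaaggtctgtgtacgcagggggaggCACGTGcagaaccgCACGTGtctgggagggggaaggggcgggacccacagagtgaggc
Per1 (chr11:69098699-69098948, plus strand): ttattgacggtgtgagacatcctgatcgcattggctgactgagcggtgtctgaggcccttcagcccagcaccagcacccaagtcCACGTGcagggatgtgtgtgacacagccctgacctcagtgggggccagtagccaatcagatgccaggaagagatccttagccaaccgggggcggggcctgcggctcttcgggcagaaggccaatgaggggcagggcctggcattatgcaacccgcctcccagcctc

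The Ciart sequence holds 3 copies of the motif, which begin at positions -116, -58 and -44 from the start. The Per1 sequence holds 1 copy, at position -166, and the second of the 2 listed Per1 windows holds none. No copy is in the Nr1d1 or Nr1d2 sequence, which says only that these letters are not in these bases. The motif was searched in RefSeq windows of 300 bases, from 250 before to 50 after each start, and 2349 of 32851 windows (7.15%) held it. Of 17 clock genes, 15 matched a window, and 5 of them (Per1, Cry1, Ciart, Bhlhe41 and Tef) held the motif.

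Before the comparison, 2 arrays at CT18 stood apart from the rest, and control array 3 went against its label for some genes. Knockout array 3 had the lowest correlations with its group, 0.986 and 0.987, and lay farthest of the 3 from the knockout mean for 40.9% of genes. For Ces1d, a carboxylesterase gene, knockout array 3 read 10.75 and control array 3 read 10.51, against 10.33 and 10.12 on the other knockouts and 10.90 and 10.80 on the other controls. The arrays numbered 3 thus lay in the opposite order to the other 4 for this gene. Over all genes control array 3 did not stand apart, with a residual SD of 0.137 against 0.135 for knockout array 1. Leaving out both arrays numbered 3 was chosen from earlier results of these samples, partly on Ces1d and genes like it, so a larger difference of such genes without them follows from that choice and is no support for it. Control array 2 carried liver transcripts, with Fabp1, a liver fatty acid binding protein, at a log2 value of 8.06 against 3.97 to 4.30 on the other 5 arrays. It had the highest reading of the 6 arrays for 12 of 15 liver genes, a list added after the data were seen. The same array was high for lymphocyte markers, with a mean log2 level over T cell markers of 7.13 against 6.09 to 6.48 on the others. Values without both arrays numbered 3 are given for some of the named genes. The medians of gene lists are followed by their range over the 18 alternative settings or by settings that moved them most.

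Few single genes separated the genotypes at CT18. Values are log2 expression made by RMA (robust multi-array average), and a difference is knockout minus control with the standard error (SE) of a limma fit of all 8 groups over the 24 arrays. Of 19938 genes, 1 passed an adjusted p of 0.05 (0.00502%), Kir3dl2, and the next smallest adjusted p was 0.119. At an unadjusted p of 0.05, 612 genes were higher in knockout fat (3.07%) and 594 lower (2.98%). For 863 genes (4.33%) all 3 knockout arrays lay above the 3 controls, and for 848 (4.25%) all lay below, together 1711 genes (8.58%) without overlap. The median difference was -0.00057 and the median 95% confidence interval, not adjusted for the number of genes, reached 0.22 to either side. In a typical gene a smaller difference could not be told from 0 with 3 arrays a group. The adjusted threshold asked for more, and Nr1d2 (-0.49) and Trdn (0.56) did not pass it. The number of arrays limits the precision.

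**Figure D1:**
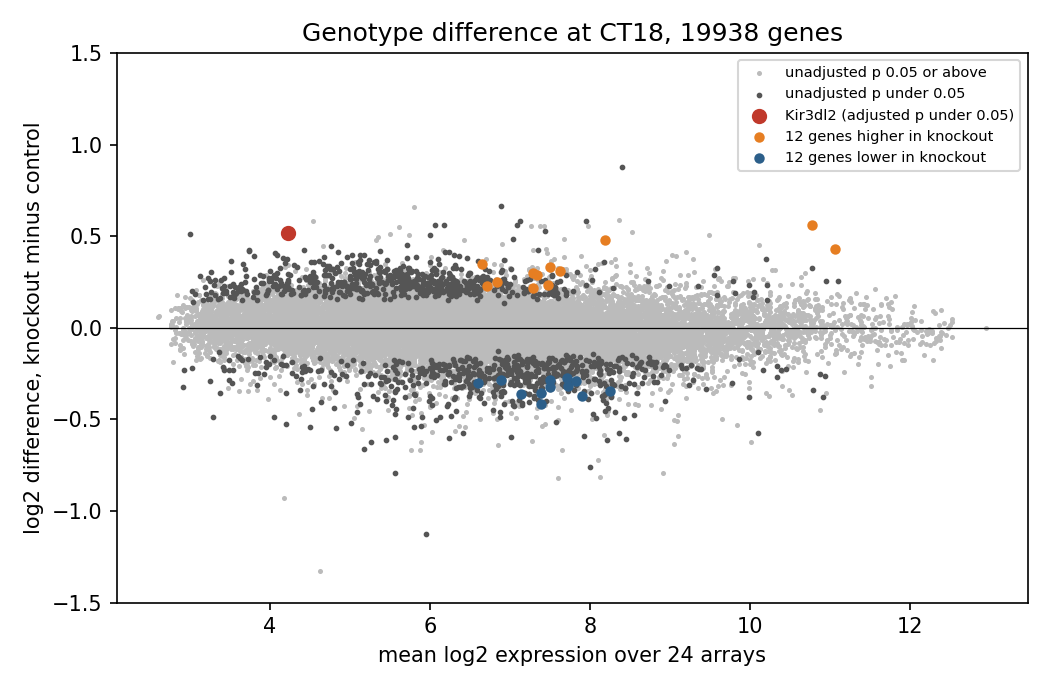
Each point is 1 of 19938 genes, with its mean log2 expression over the 24 arrays on the horizontal axis and its log2 difference at CT18, knockout minus control, on the vertical axis. Kir3dl2 (red, 0.52) lies among the dim genes, the 12 named genes on each side lie between -0.42 and 0.56, and genes with an unadjusted p under 0.05 (dark grey) spread over both sides.

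Genes with an unadjusted p under 0.05 differed in brightness by direction. Of the 612 higher ones, 142 had a mean above the median of all genes, a log2 value of 6.50, and of the 594 lower ones 374 did. Differences larger than 1 in size were found for 2 genes, both lower, and Fabp1 was 1 of them at -1.33, with its single high reading on control array 2.

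Arntl, the targeted gene (probe set 10556463), read 7.43, 7.29 and 7.07 on knockout arrays 1 to 3 and 7.04, 7.38 and 7.55 on control arrays 1 to 3. The groups overlapped, and the difference was -0.06 ± 0.16 (SE, n = 3 a group) with a 95% confidence interval from -0.39 to 0.27. It was 0.15 without the arrays numbered 3. Which exons were removed, and where the probe set lies relative to them, is not known from the labels, so these readings do not check the deletion. Clock, the partner of Arntl, read 9.90, 9.79 and 9.33 in knockouts and 9.50, 9.48 and 9.66 in controls, a difference of 0.13 ± 0.14. Its first 2 knockout arrays lay above every control and the third below them all, and the difference was 0.35 without the arrays numbered 3.

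The REV-ERB genes were the 2 of 17 clock genes whose groups did not overlap, against 8.58% of all genes. Nr1d2 (REV-ERB beta) read 7.31, 7.43 and 7.74 in knockouts and 8.22, 7.93 and 7.80 in controls. Every knockout lay below every control and knockout 3 and control 3 were nearest to each other. The difference was -0.49 ± 0.17 (95% confidence interval -0.84 to -0.14, unadjusted p = 0.00786, limma adjusted p = 0.81), and it was -0.70 without the arrays numbered 3. Nr1d1 (REV-ERB alpha, probe set 10390691) read 7.10, 7.11 and 7.07 in knockouts and 7.55, 7.31 and 7.37 in controls. All knockouts again lay below all controls, by -0.31 ± 0.16 (95% confidence interval -0.64 to 0.02, limma adjusted p = 0.826), and by -0.32 without the arrays numbered 3. Neither gene passed. Rora, the retinoid-related orphan receptor that opposes them, differed by -0.01 ± 0.13, with overlapping groups.

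CT18 was the low point of Nr1d1 among the 4 times. Control means were 8.45 ± 0.21 (SD, n = 3) at CT0, 9.90 ± 0.10 at CT6, 8.95 ± 0.25 at CT12 and 7.41 ± 0.13 at CT18. Knockout means were 7.96 ± 0.44, 9.26 ± 0.062, 8.49 ± 0.16 and 7.09 ± 0.022 at the same times. The genotype difference of Nr1d1 was therefore smaller in size at CT18 than at CT0 (-0.49), CT6 (-0.65) and CT12 (-0.47), yet CT18 minus the mean of the others was 0.22 ± 0.18 and did not pass (limma adjusted p = 0.989). For Nr1d2 the differences were 0.05 at CT0, -0.39 at CT6 and -0.41 at CT12, and CT18 minus their mean was -0.24 ± 0.19 (limma adjusted p = 0.989).

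Period and cryptochrome genes, the inhibitors of the loop, differed little beside their errors. Per1 differed by -0.11 ± 0.14, Per2 by -0.12 ± 0.10 and Per3 by -0.19 ± 0.16. Control array 1 was the highest of the 6 arrays for all 3 genes, at 8.29 for Per1, 7.38 for Per2 and 7.47 for Per3, and Per3 was -0.37 without the arrays numbered 3. Cry1 differed by 0.08 ± 0.13 and Cry2 by -0.12 ± 0.11, with overlapping groups for both.

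Ciart, a clock repressor, read 5.43, 5.63 and 5.30 in knockouts and 6.06, 5.12 and 5.59 in controls. The difference was -0.13 ± 0.23, and the groups overlapped fully. The DEC repressor genes differed by -0.11 ± 0.12 for Bhlhe40 and 0.43 ± 0.35 for Bhlhe41. Among output factors, which carry the rhythm to other genes, Dbp differed by -0.18 ± 0.16, Hlf by -0.18 ± 0.15 and Tef by 0.01 ± 0.10. Nfil3, which binds the same sites as DBP and represses them, read 8.50, 8.28 and 8.72 in knockouts and 8.51, 7.90 and 8.12 in controls, a difference of 0.32 ± 0.26 with overlap. Of the 17 clock genes, 12 were lower and 5 higher in knockout fat, with a median of -0.11 against -0.00057 over all genes. Of these, 1 had an unadjusted p under 0.05 in the lower direction, against 2.98% of all genes, and 0 passed the limma adjusted p. Without the arrays numbered 3 the median was again -0.11, with 12 lower. Over the alternatives the median of the 8 Per, Cry, Ciart and DEC genes ran from -0.21 to 0.04, highest without control array 1. For Dbp, Tef, Hlf and Nfil3 it ran from -0.14 to 0.04, highest without the arrays numbered 1. For Arntl and Clock it ran from -0.15 to 0.25, and for the REV-ERB and ROR genes from -0.37 to -0.24. Of the 5 clock genes with the E-box motif 2 were lower, and of the 10 without it 8 were lower.

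**Figure D2:**
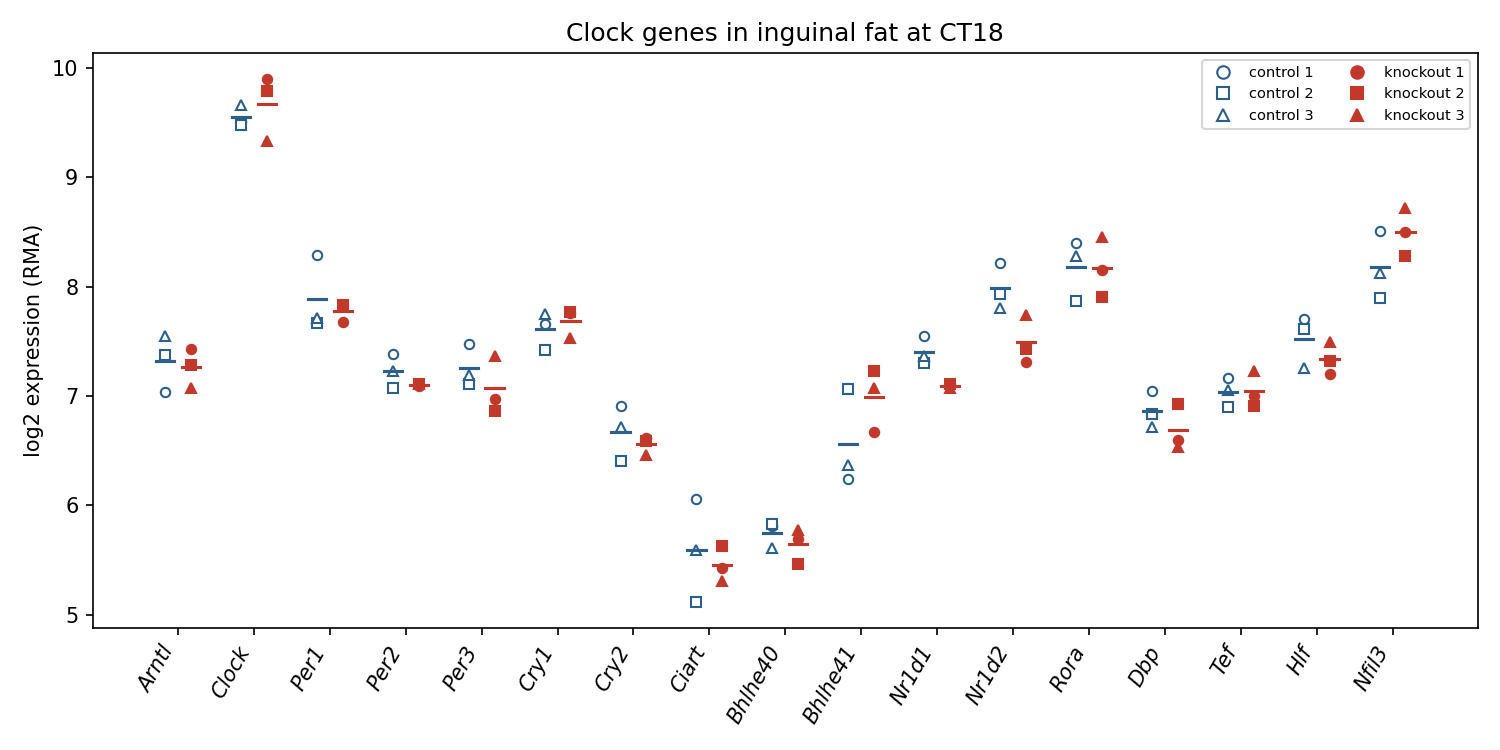
Log2 expression (RMA) of the 17 clock genes at CT18, with control arrays as open blue symbols, knockout arrays as filled red symbols and the group mean (n = 3) as a bar. The groups are separate for Nr1d1 and Nr1d2, as for 8.58% of all genes, and overlap for the other clock genes. Triangles mark the arrays numbered 3.

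Over all genes, the E-box motif in the window went with little difference. Of 15614 genes matched to a window, 1483 (9.50%) held it. Their median difference was -0.0085, and 52.7% of them were lower in knockout fat against 50.2% of the genes without it. The share with an unadjusted p under 0.05 was 6.07% with the motif and 6.02% without, both near the 6.05% of all genes tested.

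Kir3dl2 (probe set 10606870), a gene of the killer cell immunoglobulin-like receptor family of natural killer and T cells, was the gene that passed. It read 4.45, 4.43 and 4.58 on the knockout arrays and 3.87, 4.02 and 4.01 on the control arrays. All knockouts lay above all controls, with no array between them, and Kir3dl2 was higher by 0.52 ± 0.08 (SE, 95% confidence interval 0.35 to 0.68, limma adjusted p = 0.0341). The signal was dim, with 8.90% of genes having a lower mean. At the other times all 18 arrays of both genotypes lay between 4.07 and 4.32, and the differences were -0.01 at CT0, -0.08 at CT6 and 0.02 at CT12. The CT18 knockouts thus read above, and the CT18 controls below, every array of the other times. The difference of Kir3dl2 at CT18 minus the mean of the other times was 0.54 ± 0.09 and did not pass (limma adjusted p = 0.143). Kir3dl2 passed under 3 of 17 alternative settings, with differences between 0.47 and 0.57 and adjusted p between 0.0223 and 0.999.

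**Figure D3:**
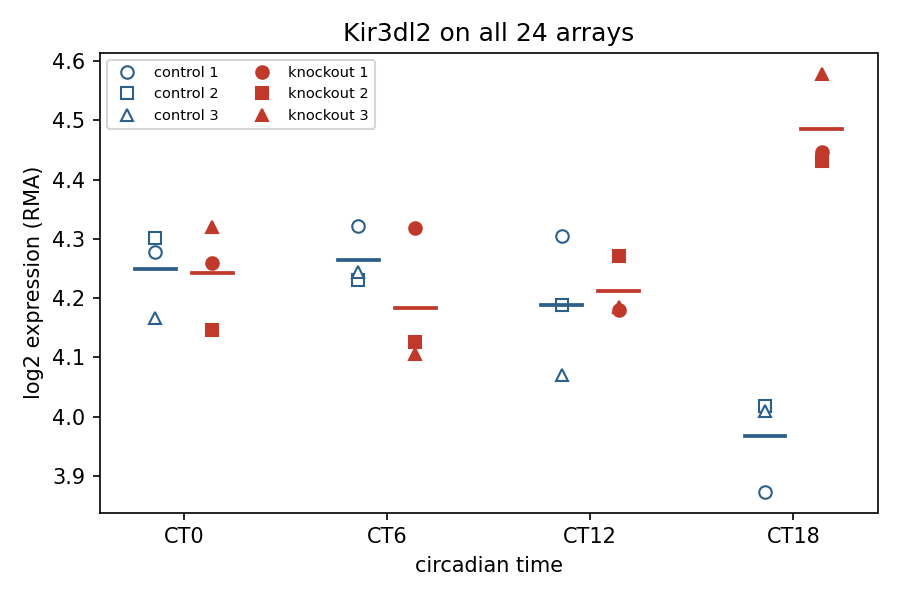
Log2 expression (RMA) of Kir3dl2 on all 24 arrays by circadian time, with controls as open blue symbols, knockouts as filled red symbols and the mean of each group (n = 3) as a bar. The genotypes overlap at CT0, CT6 and CT12, and at CT18 the knockouts read 4.43 to 4.58 and the controls 3.87 to 4.02.

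Other receptor genes of natural killer cells gave no common direction. Kir3dl1 (probe set 10601867), the other measured member of the family, read 4.35, 4.44 and 4.11 in knockouts and 4.20, 4.40 and 3.97 in controls, which overlapped (0.11 ± 0.12). Kir3dl1 and Kir3dl2 are close relatives, and whether the probes of one also detect the other was not tested. Klra5, an Ly49 receptor gene, read 3.69, 3.51 and 3.54 against 3.16, 3.19 and 3.49, with no overlap, a difference of 0.30 ± 0.10 that did not pass (limma adjusted p = 0.779). Klrc3, of the NKG2 family, differed by -0.17 ± 0.09. Klrd1, which encodes CD94, differed by -0.33 ± 0.21, with control array 2 at 6.18 and the other 5 arrays between 4.96 and 5.22. Of 17 measured receptor genes, Kir3dl2 included, 7 were higher and 10 lower, with a median of -0.04 (-0.08 to 0.02 over the alternatives). All were dim: 0 of the 17 had a mean above the median of all genes. Their mean log2 values ran from 3.13 to 5.34. Their summed level, again with Kir3dl2, (log2 of the sum of linear values) ranged from 8.34 to 8.41 in knockouts and from 8.33 to 8.54 in controls.

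The named genes lower in knockout fat are the 12 with the smallest p among genes of above-median brightness whose groups did not overlap. None passed, with limma adjusted p between 0.695 and 0.714. Thoc5, a subunit of the THO complex of mRNA export, read 7.33, 7.44 and 7.14 in knockouts and 7.70, 7.62 and 7.55 in controls (-0.32 ± 0.08). Lemd3, an inner nuclear membrane protein that binds SMAD factors, read 8.01, 8.09 and 7.83 against 8.36, 8.38 and 8.22 (-0.34 ± 0.08). Cd82, a tetraspanin of the cell surface, read 7.24, 7.30 and 6.90 against 7.62, 7.60 and 7.48 (-0.42 ± 0.11). For these 3 genes the lowest array was knockout 3, and without the arrays numbered 3 the differences were -0.28 for Thoc5, -0.32 for Lemd3 and -0.34 for Cd82.

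The other genes of this set have varied functions. Zfp746, a zinc finger repressor of the coactivator PGC-1 alpha, differed by -0.36 ± 0.09, and Ncoa3, a coactivator of nuclear receptors, by -0.32 ± 0.09. Spred1, an inhibitor of Ras signalling, differed by -0.37 ± 0.10. Ampd3, an AMP deaminase, read 7.48, 7.63 and 7.60 in knockouts and 7.89, 7.81 and 7.84 in controls (-0.28 ± 0.08) and was also lower at CT6 (-0.21) and CT12 (-0.28). Hyou1, a chaperone of the endoplasmic reticulum, differed by -0.29 ± 0.08. Ngdn, Cenpo (a centromere protein), Zfp346 (a binder of double-stranded RNA) and Izumo4 differed by -0.29, -0.35, -0.29 and -0.30. Of the 12 genes, 8 were also lower in the mean of the other 3 times, against 49.8% of all genes.

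The 12 named genes higher in knockout fat, chosen by the same rule, had limma adjusted p between 0.745 and 0.81 and did not pass. Trdn, which encodes triadin of the muscle calcium release complex, read 10.99, 11.10 and 11.11 in knockouts and 10.24, 10.79 and 10.47 in controls (0.56 ± 0.18). B3galt2, a galactosyltransferase, read 11.44, 11.29 and 11.27 against 10.80, 10.85 and 11.06 (0.43 ± 0.13). Pate11 read 8.64, 8.52 and 8.19 against 7.80, 8.09 and 8.01 (0.48 ± 0.13). At CT0, CT6 and CT12 the differences were 0.08, 0.28 and -0.15 for Trdn, -0.05, 0.18 and 0.36 for B3galt2, and 0.15, -0.11 and -0.04 for Pate11, so none of the 3 genes had one sign at all times.

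Mrpl57, a mitochondrial ribosomal protein, differed by 0.31 ± 0.10 and Mtg2, a GTPase of mitochondrial ribosome assembly, by 0.23 ± 0.08. Hoxb4, a homeobox factor, read 6.94, 7.02 and 7.01 in knockouts and 6.71, 6.79 and 6.72 in controls (0.25 ± 0.08), and its readings were close within each group. Bloc1s3, a subunit of the BLOC-1 complex of lysosome-related organelles, differed by 0.35 ± 0.11, and Rnaseh2a, the catalytic subunit of RNase H2, by 0.29 ± 0.10. Rnaseh2a was 0.15 without the arrays numbered 3, since knockout 3 read 7.74 and the other knockouts 7.25 and 7.37. Macrod2, which removes ADP-ribose from proteins, differed by 0.33 ± 0.11, Natd1 by 0.30 ± 0.10, Ogfod2 by 0.23 ± 0.07 and Bcam, a laminin receptor, by 0.22 ± 0.07. Of the 12 genes, 7 were also higher in the mean of the other 3 times, against 50.2% of all genes.

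**Figure D4:**
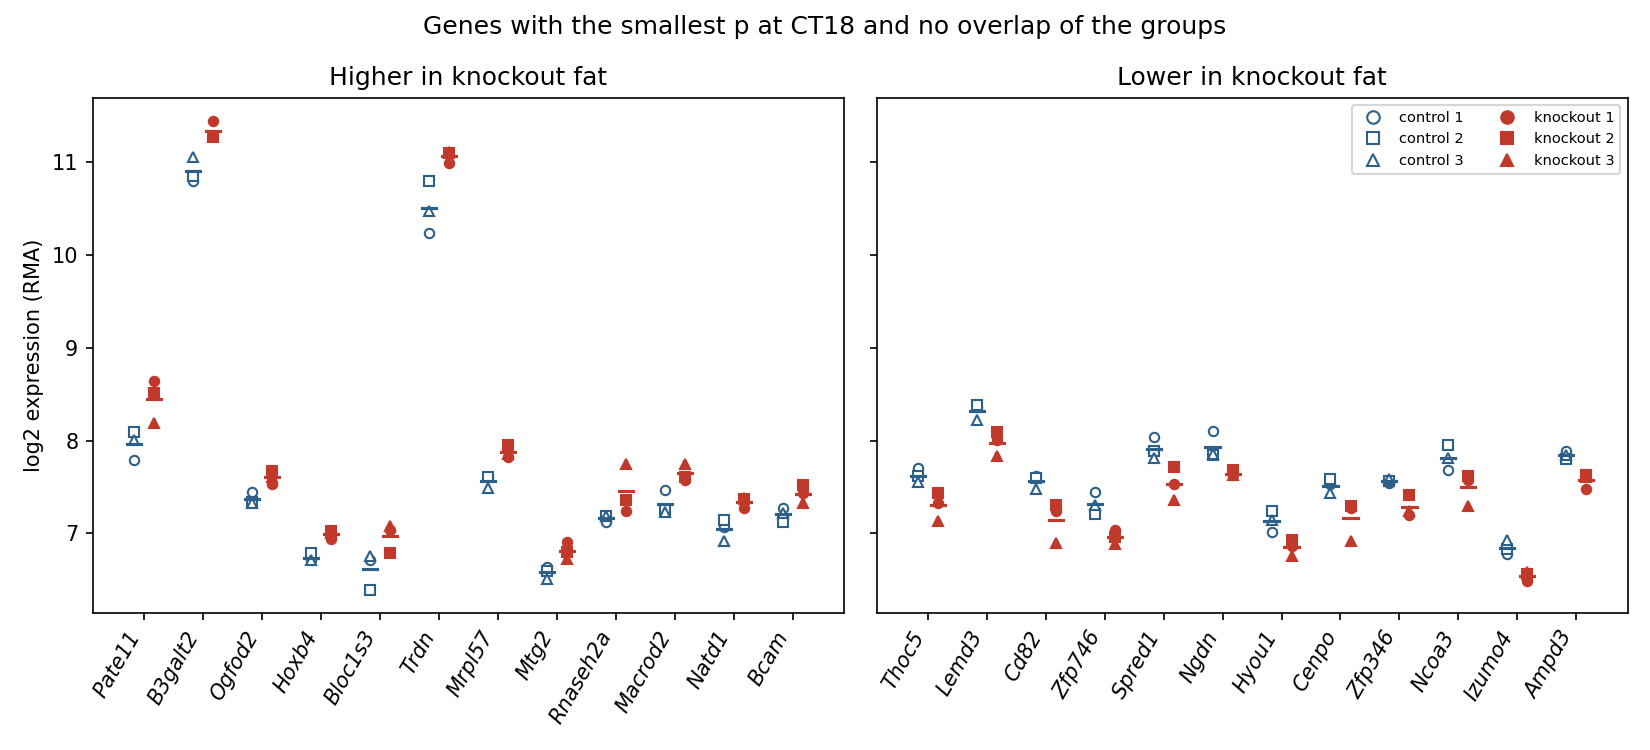
Log2 expression (RMA) at CT18 of the 12 genes higher (left) and the 12 lower (right) in knockout fat with the smallest p among bright genes whose groups do not overlap. Open blue symbols are controls, filled red symbols are knockouts and bars are group means (n = 3), and none of the 24 genes passed the adjusted threshold.

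Genes of xenobiotic and ester metabolism were lower in knockout fat for 15 of 16 measured members. The list's median was -0.24 (all genes -0.00057), 3 members had an unadjusted p under 0.05 in this direction (all genes 2.98%), and for 4 every knockout lay below every control (all genes 4.25%). None passed the adjusted threshold, and this list was chosen with earlier results of these samples known. Ephx1, an epoxide hydrolase, read 7.68, 8.18 and 6.98 in knockouts and 8.30, 8.50 and 7.88 in controls (-0.61 ± 0.20). Its groups overlapped, since knockout 2 lay above control 3. Fmo2, a flavin monooxygenase, read 9.86, 10.06 and 10.04 against 10.90, 10.60 and 10.18 (-0.57 ± 0.22), without overlap. Adh1, an alcohol dehydrogenase, read 10.78, 10.80 and 10.88 against 11.33, 11.21 and 10.94 (-0.34 ± 0.12), without overlap.

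In Fmo2 and Adh1 the nearest arrays of the groups included control 3. Gstt1, a glutathione transferase, differed by -0.24 ± 0.12. The esterase genes Ces1d and Ces1f differed by -0.34 ± 0.21 and -0.25 ± 0.19, and Fmo1 by -0.24 ± 0.20, where knockout 3 read 11.05, the highest of the 6 arrays. Ces1f was the one of these 3 whose groups did not overlap (9.34, 9.21 and 9.49 against 9.60, 9.60 and 9.62). Without the arrays numbered 3, Ces1d differed by -0.63, Ces1f by -0.32 and Fmo1 by -0.55, and the median of the list was -0.41, the lowest of the alternatives. The highest was -0.14, without knockout array 2. The list's median over the other 3 times was -0.36.

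Respiratory chain genes, which encode subunits of the mitochondrial electron transport chain and ATP synthase, lay slightly the other way. Of 23 measured members 21 were higher in knockout fat at CT18, with a median of 0.08. An unadjusted p under 0.05 was found for 0 (all genes 6.05%), and 0 passed the limma adjusted p. For 3 every knockout lay above every control (all genes 4.33%). The median was 0.04 without control array 2 and 0.02 without knockout array 3 and control array 2. Cox7b, of complex IV, read 11.41, 11.38 and 11.51 in knockouts and 11.31, 11.25 and 11.28 in controls (0.15 ± 0.08). Ndufa4 differed by 0.14 ± 0.08 and Ndufb5, of complex I, by 0.18 ± 0.11, while Ndufv1, of the same complex, differed by -0.20 ± 0.12. In the mean of the other 3 times 22 of the 23 were lower, with a median of -0.06. Taken singly, the medians were -0.17 at CT0, -0.0045 at CT6 and 0.0095 at CT12. The shift at CT18 was small, and no error was estimated for the list's median.

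The lists of lipid genes did not share a direction. Of 13 genes of fatty acid synthesis 8 were higher and 5 lower, with a median of 0.04. The median was -0.03 without the arrays numbered 3, -0.21 without knockout array 3 and control array 2 and 0.14 without knockout array 2. Thrsp, a promoter of lipogenesis, read 10.86, 10.15 and 11.20 in knockouts and 11.24, 10.87 and 11.19 in controls (-0.37 ± 0.28). At CT0 its difference was -1.41. Scd1, the main fat desaturase, differed by -0.18 ± 0.13 and Me1, the malic enzyme that supplies NADPH, by 0.26 ± 0.25. Srebf1, the regulator of the pathway, read 7.09, 7.12 and 7.15 against 6.97, 6.95 and 7.03, without overlap (0.14 ± 0.07, limma adjusted p = 0.831).

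Triglyceride synthesis had 10 measured genes, 7 of them higher (median 0.02), and lipolysis and lipid droplets 13, 10 of them lower (-0.05). Without the arrays numbered 3, 1 of these 13 was lower. Fatty acid oxidation and fasting had 16, 12 of them higher (0.08), and cholesterol synthesis 13, 8 of them higher (0.04). None of these lists held a member with an unadjusted p under 0.05 (all genes 6.05%). Lpin1, which makes the diacylglycerol for triglycerides, differed by -0.39 ± 0.25. Over the alternatives these medians ranged from -0.14 to 0.09 for triglyceride synthesis, -0.20 to 0.17 for lipolysis (highest without the arrays numbered 3), 0.0013 to 0.11 for oxidation and -0.01 to 0.09 for cholesterol synthesis. Hmgcs1, of the cholesterol list, read 9.61, 9.98 and 8.35 in knockouts and 8.45, 8.52 and 9.45 in controls. Its difference was 0.51 ± 0.45 (limma adjusted p = 0.898), and 1.31 without the arrays numbered 3. At CT0, CT6 and CT12 it was 0.53, 0.90 and 0.73. Of 17 genes of fatty acid elongation and desaturation, 10 were higher and 7 lower, with a median of 0.04 (-0.05 to 0.06 over the alternatives). An unadjusted p under 0.05 was found for 1 higher and 1 lower member (all genes 3.07% and 2.98%). For 3 members every knockout lay above every control (all genes 4.33%), and for 0 every knockout lay below. Hacd1, a dehydratase of elongation, read 7.81, 7.76 and 7.76 in knockouts and 7.39, 7.38 and 7.70 in controls (0.29 ± 0.11), without overlap. Elovl5, an elongase of polyunsaturated fatty acids, differed by -0.25 ± 0.12, and by -0.01 without the arrays numbered 3. Elovl1 differed by 0.15 ± 0.10, without overlap, and Scd4 by 0.16 ± 0.10, with overlap.

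Hormone and differentiation genes of adipocytes were close between genotypes. Adipoq, which encodes the adipocyte hormone adiponectin, read 12.02, 12.13 and 12.06 in knockouts and 12.08, 11.91 and 12.06 in controls (0.05 ± 0.08). Its reading marks both groups as adipose tissue, and the 10 measured adipocyte markers had mean log2 values from 7.64 to 12.52. Of these markers 5 were higher and 5 lower, with a summed level of 14.71 to 14.80 in knockouts and 14.60 to 14.81 in controls. Their median was 0.10 without the arrays numbered 3, with 1 of 10 lower, and -0.11 without the arrays numbered 2. Nampt, an enzyme of NAD synthesis released by fat, differed by -0.31 ± 0.21, and Nrg4, a secreted growth factor, by -0.18 ± 0.22. Of 9 genes of secreted adipocyte factors 6 were lower (median -0.01). Of 12 adipogenic factors 6 were higher (median 0.01), among them Cebpb, an early regulator of adipogenesis, at 0.20 ± 0.08 (unadjusted p = 0.0261, limma adjusted p = 0.813). Thermogenic genes had a median of 0.05, and 7 of 10 were higher. The alternatives gave medians from -0.14 to 0.04 for the secreted factors, -0.04 to 0.08 for the adipogenic factors and -0.06 to 0.11 for the thermogenic genes.

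Glucocorticoid response genes were lower for 12 of 13 members, with a median of -0.18. Yet 0 had an unadjusted p under 0.05 (all genes 6.05%) and 0 passed the limma adjusted p. Fkbp5, a cochaperone induced by glucocorticoids, read 7.94, 7.49 and 8.90 in knockouts and 9.03, 8.21 and 8.51 in controls (-0.48 ± 0.31). Knockout 3 lay above control 2 and control 3, and the difference was -0.91 without the arrays numbered 3. Mt2, a metallothionein, differed by -0.36 ± 0.28, Zbtb16 by -0.32 ± 0.21 and Dusp1, a phosphatase of MAP kinases, by -0.20 ± 0.15. The list's median was -0.31 without the arrays numbered 3, -0.35 without knockout array 3 and control array 2 and 0.08 without the arrays numbered 1.

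Interferon induced genes were lower for 13 of 14 members, with a median of -0.14. Without the arrays numbered 3 the median was -0.08, with 10 of 14 lower. Of the 14, 3 had an unadjusted p under 0.05 and 3 had every knockout below every control (all genes 2.98% and 4.25%), and none passed. Ifit3, an antiviral protein, read 8.09, 8.36 and 8.34 in knockouts and 8.61, 8.94 and 8.68 in controls (-0.48 ± 0.21), without overlap. Xaf1 read 7.11, 7.59 and 7.02 against 7.63, 7.58 and 7.50 (-0.33 ± 0.12), with overlap by 1 array. Ifit2 differed by -0.26 ± 0.12 and Bst2, which tethers virus particles, by -0.14 ± 0.10. The difference of Ifit3 was -0.92 at CT0, 0.16 at CT6 and -0.14 at CT12.

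Early response, heat shock, matrix and cell cycle genes were near the median of all genes. The medians were 0.02 for 15 immediate early genes, 0.00 for 11 heat shock and cold-inducible genes, 0.07 for 19 collagen and matrix genes and -0.02 for 19 cell cycle genes. Over the alternatives the medians ranged from -0.02 to 0.11, -0.08 to 0.09, -0.03 to 0.21 and -0.11 to 0.11 in the same order. None of these members had an unadjusted p under 0.05 (all genes 6.05%).

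Endothelial markers were lower in knockout fat for all 12 measured members, with a median of -0.26. Of them 1 had an unadjusted p under 0.05 and 3 had every knockout below every control (all genes 2.98% and 4.25%), and 0 passed the limma adjusted p. In whole tissue, fewer cells of a type and less RNA per cell cannot be told apart. Robo4, a receptor of the vessel lining, read 7.10, 7.05 and 7.06 in knockouts and 7.68, 7.14 and 7.33 in controls (-0.31 ± 0.13), without overlap. Pecam1, an adhesion protein of vessels, lay between 8.77 and 9.08 on the knockout arrays, under a control range of 9.11 to 9.28 (-0.26 ± 0.13), also without overlap. Tek, the angiopoietin receptor, differed by -0.33 ± 0.17 and Emcn by -0.27 ± 0.14, both with overlap.

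The summed endothelial level was 11.76 to 12.042 in knockouts and 12.046 to 12.21 in controls, so the groups were barely apart. The mean log2 level of the same markers overlapped, with knockout array 2 at 8.176 and control array 2 at 8.171. The median was -0.20 without the arrays numbered 3, with 11 of 12 members lower, and lay between -0.29 and -0.12 over all alternatives, nearest to 0 without the arrays numbered 1. At the other times the medians were -0.03 at CT0, -0.18 at CT6 and -0.26 at CT12. The part of vessel content in the other differences at CT18 was not tested.

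Smooth muscle and pericyte markers were lower for 9 of 11 members, with a median of -0.21, and 4 had every knockout below every control (all genes 4.25%). None of the lower members had an unadjusted p under 0.05 (all genes 2.98%), and the 1 member that did, Cspg4, was higher (all genes 3.07%). Tagln, a contractile protein, read 8.86, 8.82 and 8.49 in knockouts and 9.56, 8.96 and 9.15 in controls (-0.50 ± 0.34). Myl9, a myosin light chain, differed by -0.53 ± 0.35, and by -0.14 without the arrays numbered 3, as knockout 3 read 8.96 against 9.75 to 10.27 on the other 5 arrays. Pdgfrb, a pericyte receptor, differed by -0.21 ± 0.13, and Cspg4 by 0.18 ± 0.08. The median of the list was -0.07 without the arrays numbered 3 and -0.36 without those numbered 2. The summed level was 12.11 to 12.59 in knockouts and 12.56 to 12.88 in controls.

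Macrophage markers were lower for 13 of 14 members, with a median of -0.25. In this direction 1 had an unadjusted p under 0.05 and 2 had every knockout below every control (all genes 2.98% and 4.25%). C1qa, a complement component, read 8.32, 8.44 and 7.26 in knockouts and 8.55, 8.83 and 8.47 in controls (-0.61 ± 0.25). Knockout 3 was far below the other 5 arrays, and the difference was -0.30 without the arrays numbered 3. Mrc1, the mannose receptor, differed by -0.34 ± 0.22, Clec10a, a lectin, by -0.38 ± 0.22 and Fcgr1, an antibody receptor, by -0.19 ± 0.11. The list's median was 0.10 without knockout array 3 and control array 2, and -0.09 without either of them alone. The summed level was 11.89 to 12.43 in knockouts and 12.08 to 12.67 in controls. In the mean of the other times the median was 0.07, but the times differed in sign. The medians were -0.22 at CT0, 0.19 at CT6 and 0.23 at CT12.

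T cell markers were lower for 10 of 11 members, with a median of -0.25, 2 with an unadjusted p under 0.05 and 1 without overlap (all genes 2.98% and 4.25%). Ccr7, a homing receptor of lymphocytes, read 7.36, 7.29 and 7.31 in knockouts and 7.57, 7.58 and 7.46 in controls (-0.22 ± 0.10). Cd5, a surface protein of T cells, differed by -0.25 ± 0.10, Cd4 by -0.22 ± 0.12 and Cd8a by -0.27 ± 0.15. Control array 2 was the highest of the 6 arrays for these 4 genes, at 7.58, 6.36, 6.28 and 6.50. The summed level was 9.71 to 10.22 in knockouts and 9.78 to 10.88 in controls, and the median was 0.12 without the arrays numbered 2, 0.0090 without control array 2 alone and -0.39 without the arrays numbered 1.

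B cell markers had a median of -0.05 with 7 of 9 lower, and the median was 0.43 without the arrays numbered 2 and -0.31 without those numbered 3. Natural killer cell markers had a median of -0.04 (-0.08 to 0.10 over the alternatives), with 7 of 12 lower and a summed level of 8.85 to 9.17 in knockouts and 8.89 to 9.20 in controls, beside the Kir3dl2 result; their part in it was not tested. Mast cell markers were lower for 7 of 8 members (median -0.10, from -0.15 to -0.06 over the alternatives), with Kit, the stem cell factor receptor, at -0.22 ± 0.10 and the protease Mcpt4 at -0.41 ± 0.22. Mesothelial markers were higher for 7 of 8 (median 0.13), with Msln at 0.23 ± 0.16 and Muc16 at 0.32 ± 0.24. Their median was -0.02 without knockout array 2 and 0.41 without knockout array 3 and control array 2. Progenitor and fibroblast markers had a median of -0.05, mammary and skin epithelium 0.03, skeletal muscle 0.04, nerve sheath 0.06 (5 genes) and erythroid cells 0.15 (3 genes). The alternatives gave -0.17 to 0.22 for progenitors, -0.03 to 0.11 for epithelium, -0.04 to 0.07 for muscle, -0.02 to 0.16 for nerve sheath and -0.02 to 0.27 for erythroid cells, so each of these medians had both signs. No marker in any of these lists passed the adjusted threshold. Of all 36 lists described, 19 had a median below 0.

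**Figure D5:**
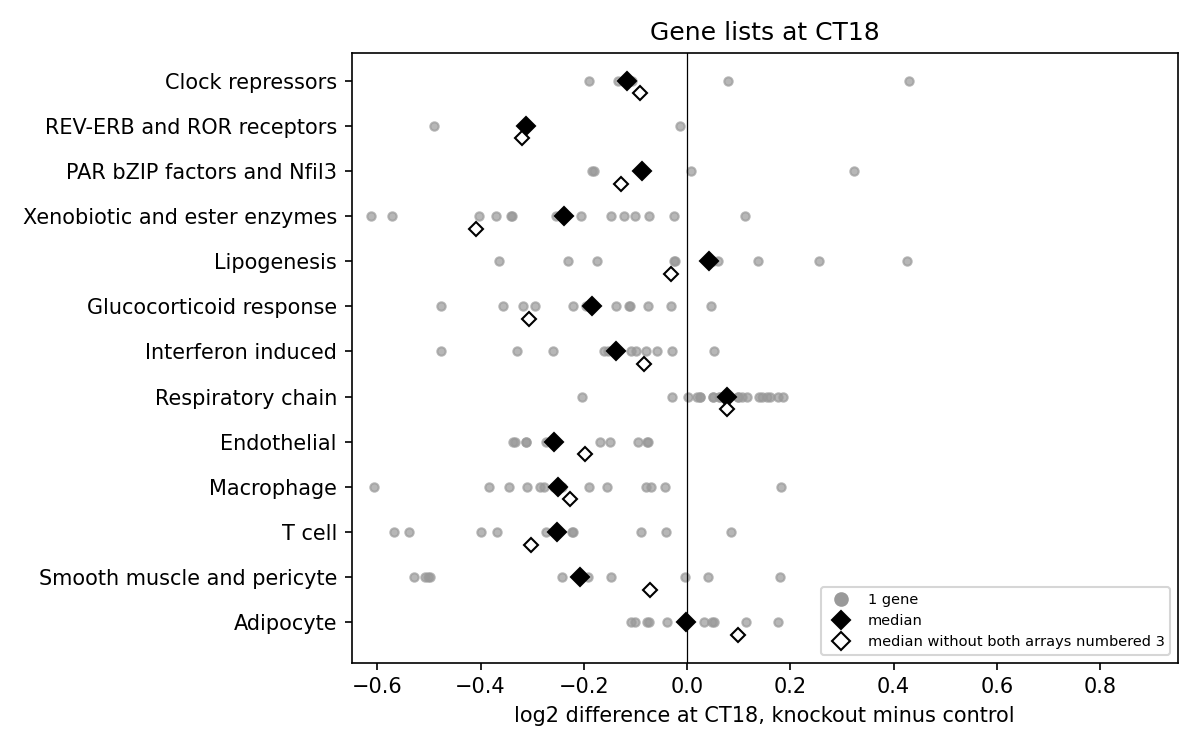
Log2 differences at CT18, knockout minus control, of the members of 13 gene lists selected from the 36 described. Each gene is a grey point, the list's median a black diamond and the median without both arrays numbered 3 an open diamond. Of all 36 lists, 19 had a median below 0, so the selection does not stand for the whole. Endothelial genes all lie below 0 with a median of -0.26, adipocyte genes lie around 0, and respiratory chain genes lie mostly above it with a median of 0.08.

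The test of CT18 against the other times asks whether the genotype difference at this time departs from the mean of CT0, CT6 and CT12. With limma, 0 genes passed, and 869 (4.36%) had an unadjusted p under 0.05. Of the 612 genes higher at CT18 with an unadjusted p under 0.05, 345 (56.4%) were higher in the mean of the other times, against 50.2% of all genes. Of the 594 lower ones, 367 (61.8%) were lower there, against 49.8% of all genes. Across genes, which are not independent replicates, the CT18 difference correlated with that of CT0 at r = 0.081, of CT6 at 0.21 and of CT12 at 0.0060 (n = 19938), with no arrays shared between times. Without the arrays numbered 3 these were 0.19, 0.35 and -0.031.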

How the data were processed

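Gene expression in inguinal fat was measured on 24 Affymetrix mouse arrays, 8 groups of 3, of which 6 were taken at CT18. The authors' deposited table holds log2 values made with RMA, per the submitters' processing notes, and the RMA version is not given in the sources used here. Per the labels' protocols, 50 ng of Trizol-extracted RNA was amplified and labelled with biotin. The deposited values were used without further normalization. Of 35556 probe sets, 21789 had 1 symbol in the platform annotation, 1621 had several and were not used, and each of 19938 genes was represented by its brightest probe set, with no filter on dim genes.

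The 8 groups were fitted with limma 3.58.1 (lmFit, eBayes) in R 4.3.3 over all 24 arrays, with 16 residual and 5.03 prior degrees of freedom. The contrasts were knockout minus control at CT18, and that difference minus its mean at the other times, with Benjamini-Hochberg adjustment over all genes and a threshold of 0.05. The fit was tested on simulated data. Replicate numbers were not taken to pair the arrays across genotypes: deviations of same-numbered arrays correlated at 0.19, 0.37 and 0.33 at CT0, 0.097, -0.034 and 0.12 at CT6, -0.37, -0.029 and -0.29 at CT12, and -0.082, 0.16 and -0.12 at CT18.

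Named genes are any that passed, the 17 clock genes, the 12 higher and 12 lower with the smallest p among bright genes without overlap, and in each list described up to 4 members with the smallest p; Kir3dl1, Ces1d, Ces1f and Fmo1 were named as list members. Clone-based and predicted symbols were not named, and Fabp1 was named after its values were seen. The members, lists and rules were chosen with earlier results of these data known. Lists are described by counts and medians, with no set test. Alternatives left out arrays (both numbered 3 on the basis of earlier results of these samples), restricted the fit to CT18, used a replicate block, quantile normalization, array weights, an intensity trend with a robust prior, averaged probe sets or a filter on dim genes.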

Additional observations from a re-analysis of the deposited data

How the results depend on the processing

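The 18 alternatives left the comparison with few or no adjusted calls. Against 1 gene at an adjusted p of 0.05, 0 passed in each of these fits: the 6 CT18 arrays alone, without both CT18 arrays numbered 1, without both numbered 3 (alone or with both CT12 arrays numbered 1), without knockout array 3 and control array 2 (chosen after seeing the data), with quantile normalization, above the lower quartile of level and with array weights, while 3 passed without both arrays numbered 2. Leaving out 1 array gave 0 to 5 adjusted calls, the most without knockout array 2, and 1021 to 1947 genes with an unadjusted p under 0.05 against 1206, the most again without that array. The fit of the 6 arrays alone gave 679. For CT18 minus the other times, 1 gene passed without both arrays numbered 2, and leaving out 1 array gave 0 to 1, with the call made without knockout array 2. The number of lists with a median below 0 was 16 to 24 against 19.

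With the replicate number as a block, 0 genes passed and 1272 had an unadjusted p under 0.05. The block gave Kir3dl2 the same difference, 0.52, without passing.

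Of 98 genes checked, 83 kept their sign under every alternative run, and 34 of 1758 values reversed. The cause of the reversals was not tested. For genes whose groups did not overlap, leaving out arrays could not reverse the sign. Restricting the fit to this circadian time, the replicate block and the intensity trend with a robust prior left each gene's difference unchanged. These counts were therefore partly fixed in advance and do not measure robustness. Without both arrays numbered 1 the reversed differences were -0.0090 (Clock), 0.14 (Per1), 0.12 (Ciart), 0.11 (Rora) and 0.087 (Nrg4). Without both numbered 2 they were -0.057 (Cry1), 0.020 (Bhlhe40), 0.11 (Klrd1), 0.00075 (Fmo1), 0.0017 (Cd4) and -0.033 (Adipoq). Without both numbered 3, with or without the CT12 pair, Arntl was 0.15 and Tef -0.079. Without knockout array 3 and control array 2 Arntl was 0.061, Tef -0.16 and Pdgfrb 0.020. Array weights gave 0.029 for Arntl and -0.066 for Tef, and quantile normalization 0.030 for Rora. Leaving out 1 array gave ranges of -0.20 to 0.055 for Arntl, -0.22 to 0.086 for Per1, -0.017 to 0.16 for Cry1, -0.37 to 0.10 for Ciart, -0.17 to 0.12 for Rora and -0.086 to 0.078 for Tef. The ranges were -0.0011 to 0.22 for Kir3dl1, -0.52 to 0.031 for Klrd1 and -0.0020 to 0.085 for Adipoq.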

Other observations

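Per array, the liver genes had a mean log2 level of 6.93 on control array 2 and 5.80 to 5.96 on the other 5 CT18 arrays. Apoa2, an apolipoprotein, read 9.52 there against 6.93 to 7.26, and Alb (albumin) 8.96 against 7.01 to 7.81. B cell markers had a mean level of 7.01 on the same array and 5.85 to 6.51 on the others. Array weights, which fall with an array's departure from its group, were 0.77, 0.96 and 0.41 for knockouts 1 to 3 and 1.27, 0.66 and 0.77 for controls 1 to 3. Of the 848 genes with every knockout below every control, knockout 3 was the lowest array for 393, knockout 1 for 279 and knockout 2 for 176. Of the 863 genes the other way, knockout 1 was the highest for 352, knockout 3 for 348 and knockout 2 for 163.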
